A study of Mus musculus with 24 samples.

Results

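MicroRNA levels were compared between whole eyes that had been form-deprived and whole control eyes of C57BL/6J mice, with attention to the miRNAs that were bright or detected on every array, to small differences, and to both strands of a precursor. The 12 whole-eye arrays, of 24 in the series, were chosen by sample title: 6 titled myopia and 6 titled control. A frosted diffuser had covered the right eye of each mouse from postnatal day 24 for 10 days, which deprives the retina of form vision. The untreated left eye was the control, and the labels give an age of 34 days for both arms. No transgene or second treatment is named. The labels give 15 mice for the series and 6 for whole eye, and do not say whether an array held RNA of 1 animal or a pool, or whether arrays with the same number came from the same mouse. What the p-values measure is thus the scatter of these samples, some of which may be technical. By these labels both arms come from the same 6 mice, while the p-values treat the 12 arrays as independent. Of the label fields, 3 (title, source name, phenotype) put each whole-eye array in one arm, but the description text puts it in the other, and read that way every rise given here would be a fall.

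A miRNA is cut from a hairpin precursor, the 5p strand from one arm of the hairpin and the 3p strand from the other, so both strands start from the same transcript. One strand is usually loaded into Argonaute and kept while its partner is degraded, and the loaded strand finds target messenger RNAs mainly through its seed, bases 2 to 8. In the eye, miR-124 and miR-9 are known from retinal neurons, the miR-183, miR-96 and miR-182 cluster from photoreceptors, miR-204 and miR-211 from pigment epithelium and ciliary body, and miR-184 from lens and cornea.

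The mature sequences of the miRNAs on which the results turn are shown first, taken from RefSeq (GRCm38.p6) by name, 5′ to 3′, with the seed in capitals. Of the 696 miRNAs on the array, 530 matched a RefSeq mature sequence by name. The first set holds the 6 miRNAs that were detected on all arrays and rose by less than 1 on the log2 scale, which is less than 2-fold. No seed is shared among them.
miR-324-3p: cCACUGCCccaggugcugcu
miR-652-3p: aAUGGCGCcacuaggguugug
miR-342-5p: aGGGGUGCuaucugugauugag
miR-500-3p: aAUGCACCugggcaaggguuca
miR-3099-3p: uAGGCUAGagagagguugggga
miR-346-5p: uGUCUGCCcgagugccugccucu

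The next set shows strand pairs in which 1 strand changed more than its partner. The strands of a pair carry unrelated seeds, so a shift in 1 strand concerns another set of possible targets than a shift in its partner.
miR-338-5p: aACAAUAUccuggugcugagug
miR-338-3p: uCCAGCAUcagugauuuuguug
miR-342-3p: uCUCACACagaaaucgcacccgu
miR-214-5p: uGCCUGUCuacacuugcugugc
miR-214-3p: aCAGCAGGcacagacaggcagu
miR-30c-5p: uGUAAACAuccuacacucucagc
miR-30c-1-3p: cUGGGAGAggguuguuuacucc

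Bright miRNAs of the eye are shown for comparison. miR-204-5p and miR-211-5p share the seed UCCCUUU, and the let-7 members share GAGGUAG.
miR-204-5p: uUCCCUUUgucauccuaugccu
miR-211-5p: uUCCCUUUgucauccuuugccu
miR-96-5p: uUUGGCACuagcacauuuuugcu
miR-183-5p: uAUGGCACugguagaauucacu
miR-183-3p: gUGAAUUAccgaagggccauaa
miR-184-3p: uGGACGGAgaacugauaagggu
let-7a-5p: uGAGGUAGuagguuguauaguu
let-7c-5p: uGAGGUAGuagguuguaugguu

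A last set of called miRNAs with repeats of G and U is shown because their probes hold the run ACACAC.
miR-1187: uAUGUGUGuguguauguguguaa
miR-574-5p: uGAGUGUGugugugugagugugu
miR-669n: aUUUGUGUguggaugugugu

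Each array reports a miRNA through 1 to 4 probes of graded length that pair with its 3′ end. The value of a miRNA is the sum of its probes' processed signals, divided by the 75th percentile of the array over the 288 miRNAs detected on all 12 arrays, as log2. A value of 0 is thus that percentile, and a difference of 1 is a 2-fold change. Between 305 and 357 of the 696 miRNAs were detected per array, and 341 were tested because at least 4 of 6 arrays of 1 arm detected them. Arrays of an arm correlated at r = 0.984 to 0.998, and none held identical values. Of the array-level measures, the median variation between spots of a probe (CV) was 10.1% ± 3.90 in myopia and 7.59% ± 0.417 in control (SD, n = 6 each; two-sided exact permutation p = 0.0325), with myopia replicate 3 at 17.8%. The negative control spots read 1.59 ± 0.507 in myopia against 2.76 ± 0.553 in control (SD, n = 6 each; two-sided exact permutation p = 0.00216). Each of 3 slides held 2 arrays of each arm. The myopia arrays lay in slide columns 1 and 2 and the control arrays in columns 3 and 4, so column and arm cannot be told apart.

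Across the whole eye, the miRNAs that were measured on every array differed little between arms. Of the 341 tested, 35 rose in myopia (10.3%) and 0 fell (0%) at an adjusted p under 0.05 (limma, Benjamini-Hochberg), the threshold for calling a miRNA here, and 84 had an unadjusted p under 0.05. Of the 288 detected on all 12 arrays, 15 rose (5.21%) and 0 fell, against 20 of the 53 that some array did not detect. Some of those 53 entered the test only through the arm in which they were detected, so their share is a description. The split of calls depended on the scaling: with quantile normalisation 32 were higher and 64 lower, and 32 of the 35 were again called higher.

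**Figure D1:**
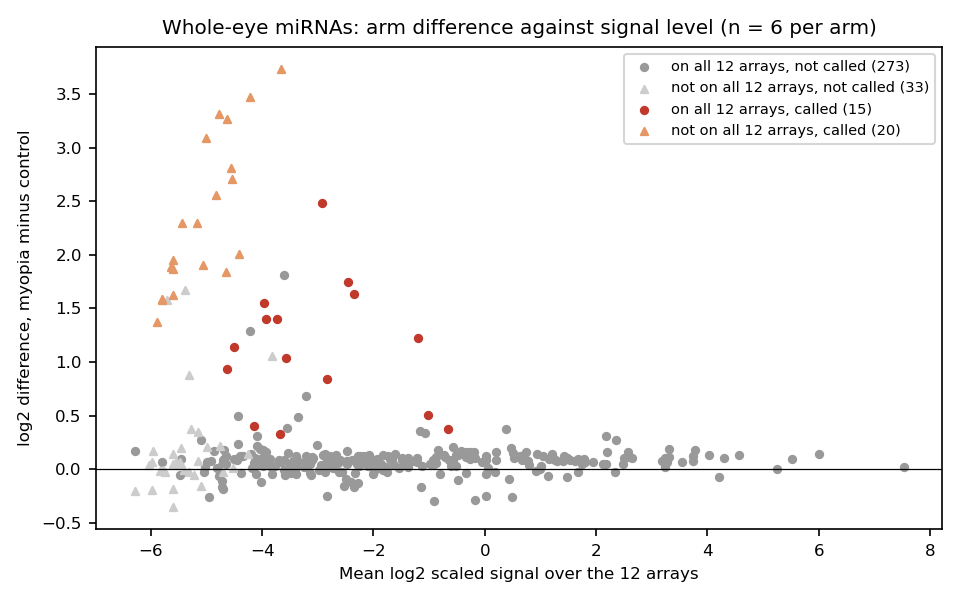
Log2 difference between arms (myopia minus control) against mean log2 scaled signal over the 12 arrays, 1 point for each of the 341 tested miRNAs (n = 6 arrays per arm). The called miRNAs (red and orange) are all above 0 and lie at mean levels below 0, and the bright end holds none.

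Among the 288, the differences formed a narrow band. Their median was 0.08 on the log2 scale, with quartiles of 0.03 and 0.12, and 237 lay above 0. The median standard error was 0.08, so a typical difference was the size of its error. For 255 the 95% interval lay within a 1.5-fold change either way, and for 273 within a 2-fold change. Of the 58 with an unadjusted p under 0.05, 56 were higher in myopia. The position of this band is set by the scaling: scaled on all 696 miRNAs, the median was -0.13, 32 lay above 0, and of those with an unadjusted p under 0.05, 15 were higher and 38 lower. Quantile normalisation gave -0.12. The choice of scale thus moved the band by -0.21 on the log2 scale either way it was changed. A difference under about that size has no settled direction. Single miRNAs moved further with quantile normalisation, so some larger differences turned sign too. With it miR-342-5p went from 0.40 to -0.089, and miR-155-5p from 0.27 to -0.31.

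The calls lay among the dimmer of the 288. Split by mean signal into 4 groups of 72, the dimmest held 8 calls, the next 4, the third 3 and the brightest 0. The groups had median differences of 0.09, 0.06, 0.08 and 0.09, so the band itself lay at much the same height from dim to bright. The median standard error was 0.10 in the dimmest group and 0.07 in the brightest. In the brightest group 69 of 72 intervals lay within a 1.5-fold change and all 72 within 2-fold, and its differences ran from -0.26 to 0.38.

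The 10 miRNAs with the highest signal were examined whatever their change, and none was called. miR-124-3p, the neuronal miRNA, had values of 5.86 to 6.23 (median 6.11) on myopia arrays and 5.79 to 6.00 (median 5.98) on control arrays. The ranges overlapped, and the difference was 0.14 (SE 0.07, limma adjusted p = 0.210). miR-183-5p of the photoreceptor cluster ran from 4.47 to 4.74 (median 4.68) in myopia and from 4.31 to 4.61 (median 4.54) in control. Its difference was again 0.14 (SE 0.07, adjusted p = 0.229), and that of miR-96-5p, transcribed from the same cluster, was 0.09 (SE 0.08). Neither arm stood apart for the cluster.

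miR-204-5p, which lies within the bounds of Trpm3, ran from 4.20 to 4.48 (median 4.37) in myopia and from 4.13 to 4.31 (median 4.26) in control, a difference of 0.10 (SE 0.05, adjusted p = 0.273). miR-211-5p, within Trpm1 and with the same seed, differed by 0.12 (SE 0.08). The arms overlapped for both. miR-184-3p was the only one of the 10 with a difference below 0, at -0.07 (SE 0.10), and it was -0.32 on slide 1 against 0.05 and 0.06 on slides 2 and 3. Its 95% interval ran from -0.28 to 0.14.

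let-7c-5p was the only one of the 10 whose arms did not overlap. It ran from 3.77 to 4.16 (median 3.78) in myopia and from 3.56 to 3.75 (median 3.73) in control, and the lowest myopia value was within 0.02 of the highest control value. Its difference of 0.18 (SE 0.07, adjusted p = 0.171) was not called, and it was -0.03 when scaled on all miRNAs. let-7a-5p differed by 0.14 (SE 0.05, adjusted p = 0.151). The remaining pair, miR-1937b_v16.0 at 0.02 and miR-720 at 0.00, had standard errors of 0.14 and differed least. Both names have since been withdrawn from miRBase as likely transfer RNA fragments.

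In the families of related sequence that were listed, no member changed past the test. Over 17 families, 0 of 59 tested members were called, beside 10.3% over all miRNAs and 5.21% of the 288 detected on all 12 arrays. Most of the 59 were detected on all 12 arrays. Of the 59, 51 lay above 0, and their median was 0.09. All 9 let-7 and miR-98 members lay above 0, from 0.08 for let-7f-5p to 0.19 for let-7b-5p, with a median of 0.14. The 4 miR-181 members lay between 0.07 and 0.13, the 5 miR-30 members between 0.07 and 0.12, and the 3 miR-29 members, known for targeting collagens, between 0.02 and 0.07. The 3 members of the miR-200b seed group were all below 0, at -0.17, -0.15 and -0.03. Scaled on all 696 miRNAs, all 59 members were below 0, so the sign of a family depends on the scale.

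The cell type lists gave the same picture. Of the retinal neuron list, 9 of 10 tested members lay above 0 (median 0.09, range -0.01 to 0.14), and the 3 photoreceptor members ranged from 0.09 to 0.14. No member of either list was called. The lens and cornea list had 0 of 9 members above 0 (median -0.15), with miR-205-5p at -0.26 (SE 0.22) and miR-203-3p at -0.25 (SE 0.19), and no call. Of the 5 skeletal muscle members 1 lay above 0 (median -0.25). The summed scaled signal of that list ran from 1.09 to 1.48 in myopia and from 1.27 to 1.85 in control, as log2, and its part in the called differences was not tested. All 5 tested leukocyte members lay above 0 (median 0.13), led by miR-155-5p at 0.27 (SE 0.11, adjusted p = 0.171). The 4 vessel members had a median of 0.08. Scaled on all miRNAs, the medians were -0.12 for retinal neurons, -0.10 for photoreceptors, -0.09 for leukocytes and -0.13 for vessel. The direction of these lists thus depends on the scale. The lens and cornea (-0.36) and skeletal muscle (-0.46) medians stayed below 0. With quantile normalisation the leukocyte median was -0.31. The fibroblast list had 1 call among 9 tested members, beside 10.3% over all miRNAs: miR-214-5p, which entered the test through the myopia arm (5 arrays against 0). Its members miR-10a-5p and miR-10b-5p were not tested. Fewer cells of a type and less miRNA per cell cannot be told apart in whole eyes.

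**Figure D2:**
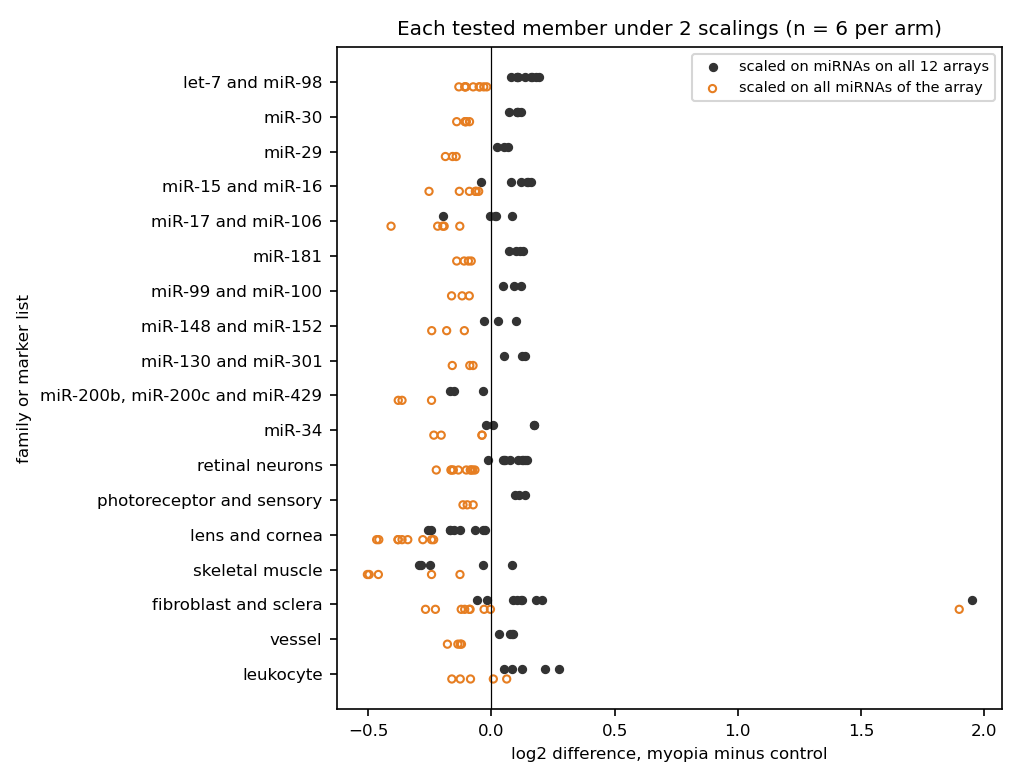
Log2 difference (myopia minus control, n = 6 arrays per arm) of each tested member of the families and cell type lists with at least 3 tested members, scaled on the miRNAs detected on all 12 arrays (filled) and on all 696 miRNAs (open). In most lists the members lie close together under either scale. Exceptions are miR-214-5p of the fibroblast and sclera list, at 1.95 and 1.90, and the skeletal muscle list, from -0.29 to 0.08 on the first scale. The let-7 members move from above 0 to below it.

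The 5 smallest p-values among decreases of well-detected miRNAs were led by muscle miRNAs, and none passed the test. miR-1a-3p ran from -0.48 to -0.19 (median -0.30) in myopia and from -0.29 to 0.24 (median -0.07) in control. The arms overlapped, with a difference of -0.29 (SE 0.10, limma adjusted p = 0.105). miR-133a-3p, which is co-transcribed with miR-1a, differed by -0.29 (SE 0.12, adjusted p = 0.174), and miR-133b-3p by -0.25 (SE 0.12). miR-3107-5p and miR-3473_v15.0 stood at -0.18 and -0.26. Some passed under other settings. miR-1a-3p passed when scaled on all miRNAs (-0.50, adjusted p = 0.0236) and without control replicate 5 (-0.34, adjusted p = 0.0476). miR-1a-3p, miR-133a-3p, miR-3107-5p and miR-3473_v15.0 passed with quantile normalisation, at -0.35, -0.42, -0.72 and -0.80. miR-133a-3p passed with the replicate block (adjusted p = 0.0407), miR-3107-5p with its brightest probe (-0.25, adjusted p = 0.0458) and miR-3473_v15.0 without myopia replicate 4 (-0.39, adjusted p = 0.0407).

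The 6 well-detected miRNAs that rose by less than 2-fold are given one by one. miR-652-3p, encoded within Tmem164 (chromosome X, 139173608 to 139173623, mm9, as the files place its probe), ran from -0.60 to -0.15 (median -0.53) in myopia and from -0.97 to -0.75 (median -0.84) in control. The arms did not overlap, and it rose by 0.38 (SE 0.07, limma adjusted p = 0.00364). Within slides 1, 2 and 3 the difference was 0.23, 0.54 and 0.36. Scaled on all miRNAs it was 0.17 and no longer passed (adjusted p = 0.148).

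miR-500-3p, within the chloride transporter gene Clcn5 (chromosome X, 6814873 to 6814888, mm9), ran from -0.94 to -0.32 (median -0.88) in myopia and from -1.41 to -1.18 (median -1.26) in control. The arms did not overlap, and it rose by 0.50 (SE 0.10, limma adjusted p = 0.00364). Its slide values were 0.37, 0.71 and 0.43, and with scaling on all miRNAs it was 0.29 and passed (adjusted p = 0.0236). Of the 6, miR-500-3p, miR-346-5p and miR-3099-3p passed under both scales.

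miR-324-3p, within Acadvl (chromosome 11, 69825603 to 69825616, mm9), showed the smallest rise of all, 0.32 (SE 0.06, limma adjusted p = 0.00255). Its arrays were tight: -3.62 to -3.42 (median -3.51) in myopia against -4.05 to -3.70 (median -3.84) in control. The arms did not overlap. The rise no longer passed when scaled on all miRNAs (0.11, adjusted p = 0.323) or with normexp background correction (0.11, adjusted p = 0.407), and was -0.016 after quantile normalisation. miR-342-5p, within Evl (chromosome 12, 109896852 to 109896869, mm9), ran from -4.23 to -3.84 (median -3.87) in myopia and from -4.50 to -4.12 (median -4.36) in control. Its arms overlapped, with 5 of 6 myopia arrays above the highest control, and it rose by 0.40 (SE 0.08, adjusted p = 0.00563). It did not pass when scaled on all miRNAs (0.19, adjusted p = 0.286), with normexp (0.06) or in the authors' deposited value table (0.27), and was -0.089 after quantile normalisation.

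miR-346-5p, within the glutamate receptor gene Grid1 (chromosome 14, 35707818 to 35707832, mm9), ran from -4.60 to -3.44 (median -4.39) in myopia and from -5.44 to -4.79 (median -5.04) in control. It rose by 0.94 (SE 0.20, limma adjusted p = 0.00595) with no overlap, and did not pass with normexp (0.12), with Agilent's total gene signal (0.57) or with a floor 4 times higher (0.42). miR-3099-3p, within Usp29 (chromosome 7, 6756356 to 6756370, mm9), ran from -2.93 to -1.55 (median -2.55) in myopia and from -3.51 to -2.98 (median -3.25) in control. It rose by 0.84 (SE 0.20, adjusted p = 0.0131), and the arms came within 0.05 of each other without overlapping.

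The other 9 called rises of well-detected miRNAs were of 2-fold or more. miR-669n rose by 2.48 (SE 0.28), from -4.82 to -3.47 on control arrays to -2.36 to -1.06 on myopia arrays. miR-376c-3p, of the imprinted Dlk1-Dio3 region (chromosome 12, 110960980 to 110961000, mm9), rose by 1.75 (SE 0.25, limma adjusted p = 3.20e-04), from -3.61 to -2.88 in control to -2.27 to -0.84 in myopia. miR-3072-5p, of the same region and within Mirg, rose by 1.04 (SE 0.22). The arms of these 3 did not overlap. Other miRNAs of the Dlk1-Dio3 region were not called, among them miR-376a-3p (-0.11), miR-376b-3p (-0.05), miR-127-3p (0.16) and miR-494-3p (0.34). miR-574-3p (1.81) and miR-467f (1.29) were also detected on all 12 arrays and higher in myopia, but were not called.

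miR-669a_v15.0 rose by 1.55 (SE 0.15), miR-1894-3p by 1.40 (SE 0.30), miR-705 by 1.40 (SE 0.24) and miR-338-5p by 1.14 (SE 0.17), each without overlap. miR-1187 rose by 1.63 (SE 0.37) and miR-574-5p by 1.22 (SE 0.31), and in both 5 of 6 myopia arrays lay above the highest control. miR-574-5p lost its call without myopia replicate 4 (limma adjusted p = 0.0506). The miR-574-5p call was also lost with the higher floor (adjusted p = 0.0578) and with no filter (adjusted p = 0.0704). With normexp background correction neither miR-705 (0.30, adjusted p = 0.0840) nor miR-338-5p (0.15, adjusted p = 0.354) passed, and miR-338-5p did not pass with its brightest probe alone (0.39, adjusted p = 0.189). Arms did not overlap for 33 of the 341 tested (9.68%) and 14 of the 288 (4.86%); the 14 are 12 of these 15, let-7c-5p and miR-15b-5p, whose difference was 0.15. Of the 15, 13 had a RefSeq sequence by name, and these carried 13 different seeds.

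Myopia replicate 5 stood out among the calls. It was the highest of the 6 myopia arrays for 12 of the 15, all but miR-346-5p, miR-342-5p and miR-574-5p, and for 12 of the 273 well-detected miRNAs that were not called. Each of the 15 passed again when that array was left out.

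**Figure D3:**
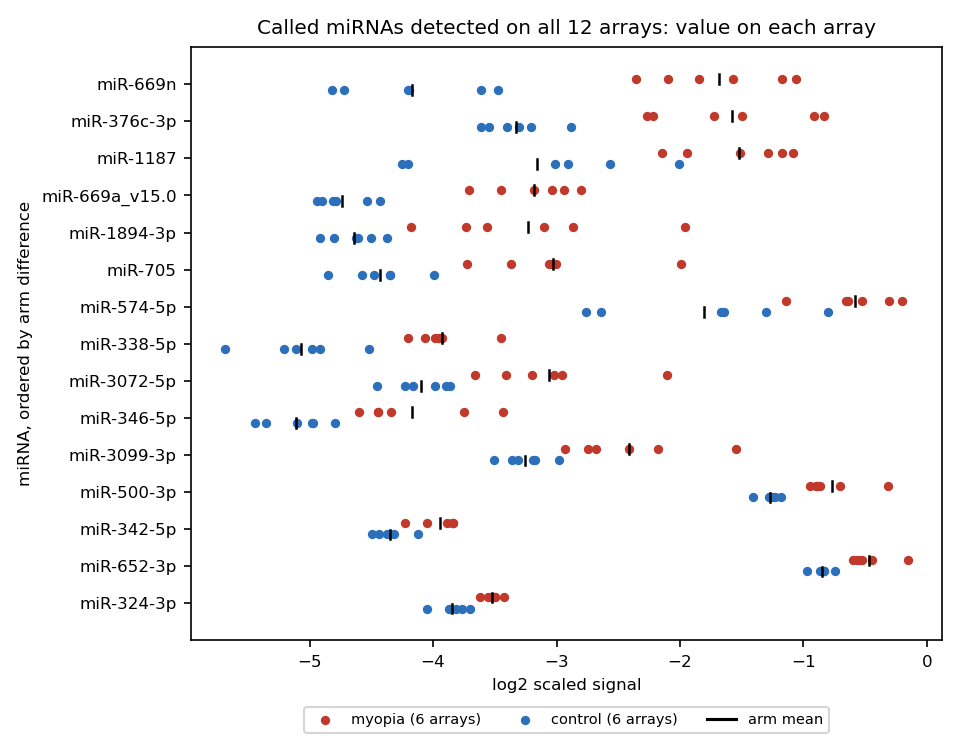
Log2 scaled signal of each of the 15 called miRNAs detected on all 12 arrays, 1 point per array (red, 6 myopia; blue, 6 control) with the arm mean as a black tick, ordered by arm difference. The differences run from 0.32 for miR-324-3p at the bottom to 2.48 for miR-669n at the top, and miR-342-5p, miR-574-5p and miR-1187 are the 3 whose arms overlap.

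The probes of a miRNA that is called need not change by the same fold. Probes of miR-376c-3p are nested, each extending the last by 1 base (capital) toward the 5′ end of the miRNA. They are shown with the miR-652-3p probes as read from the files, 5′ to 3′.
miR-376c-3p probe of 18 bases: acgtgaaatttcctctat
miR-376c-3p probe of 19 bases: acgtgaaatttcctctatG
miR-376c-3p probe of 20 bases: acgtgaaatttcctctatgT
miR-376c-3p probe of 21 bases: acgtgaaatttcctctatgtT
miR-652-3p probe of 15 bases: cacaaccctagtggc
miR-652-3p probe of 16 bases: cacaaccctagtggcG

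For miR-376c-3p the log2 difference after scaling was 3.13 for the probe of 19 bases, 1.43 for 20 and 1.05 for 21. That of the probe of 18 bases has no fixed value, since its control signal lay near 0. In signal units the same probes changed alike: before scaling, the arms differed by 50.5 for the probe of 18 bases and by 54.2 for that of 21. The shortest probe read -1.89 to 3.52 (median 0.433) on control arrays and 19.0 to 89.5 (median 45.0) on myopia arrays. The longest read 36.9 to 69.0 (median 55.5) on control arrays and 55.0 to 160 (median 104) on myopia arrays. The shortest probe thus read close to no signal in control and the longest did not.

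The small rise of miR-652-3p was also larger, as a fold, on its dimmer probe. Before scaling, its probe of 15 bases read 47.6 to 73.2 (median 55.8) in control and 68.7 to 203 (median 90.2) in myopia. Its probe of 16 bases read 347 to 562 (median 434) in control and 417 to 578 (median 496) in myopia. In these units the arms of both probes overlapped. After scaling, the log2 difference was 0.99 for the probe of 15 bases and 0.26 for that of 16. The arms differed by 54.7 units for the shorter and 43.8 for the longer probe. For miR-500-3p the probes of 15 and 16 bases differed by 57.1 and 62.1 units before scaling, and by 0.72 and 0.41 on the log2 scale after it. For miR-3099-3p the dimmest and brightest probes differed by 35.1 and 36.3 units, for miR-1894-3p by 32.6 and 32.7, and for miR-3072-5p by 26.8 and 27.7. For others the units were less alike: 7.20 and 25.9 for miR-705, 6.16 and 3.06 for miR-324-3p, 124 and 159 for miR-574-5p, 81.5 and 105 for miR-1187, 100.2 and 124 for miR-669n, and -0.462 and 4.42 for miR-342-5p.

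Over the 15 called miRNAs the dimmest probe had the larger log2 difference in 12 (80.0%), against 96 of the 273 well-detected miRNAs that were not called (35.2%). The exceptions among the called were miR-342-5p, miR-669n and miR-705. The dimmest probe of miR-338-5p, miR-342-5p, miR-346-5p and miR-376c-3p read below 0 on some array, where its log2 difference depends on the floor. Probes of a miRNA shared the sign of their difference in 32 of 34 called miRNAs with several probes, and in 277 of 340 tested ones. The 4 probes of miR-338-5p, of 12, 13, 14 and 15 bases, differed by 6.00, 6.14, 6.69 and 8.42 units, and the probe of 14 bases read 19.8 to 39.2 in control while the other 3 read -4.50 to 2.69. Corner control spots, which are no miRNA probes, read 324 ± 105 in myopia and 161 ± 34.3 in control (SD, n = 6 each; two-sided exact permutation p = 0.00433). Their part in the called differences was not tested.

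**Figure D4:**
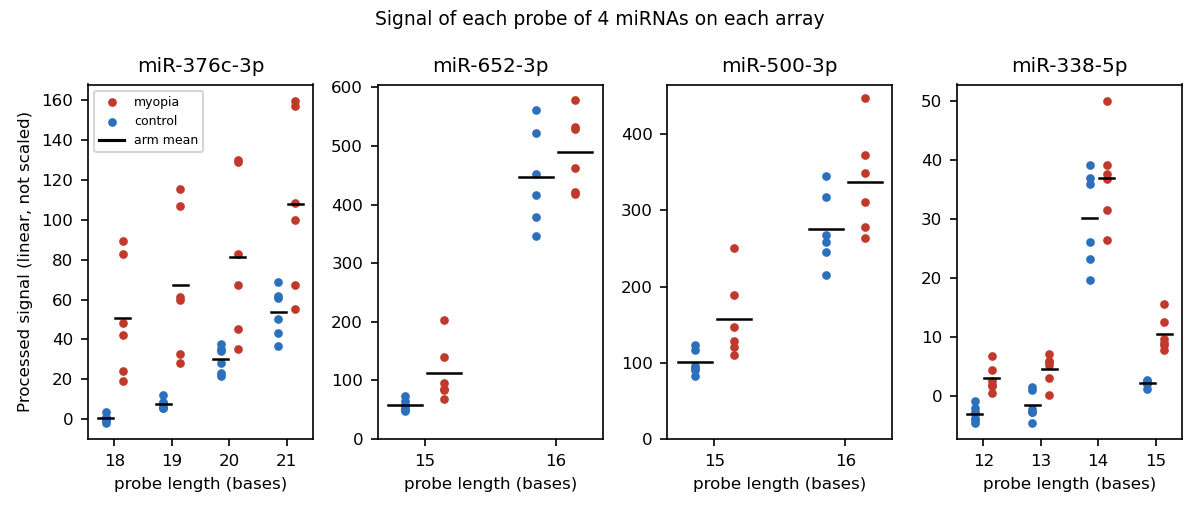
Processed signal of each probe, in linear units before scaling, on each array (red, 6 myopia; blue, 6 control) with the arm mean as a black line, by probe length in bases. For miR-376c-3p the gap between arm means is 50.5 units at 18 bases and 54.2 at 21, on control levels with medians of 0.433 and 55.5.

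A short run was more frequent in the probes of called miRNAs, though most called miRNAs lacked it. The run ACACAC, searched in the probe as printed with no other strand, occurred in a probe of 18 of the 696 miRNAs on the array (2.59%) and 14 of the 341 tested (4.11%). Of the 35 called, 13 held it (37.1%), and of the 306 not called 1 did (0.327%), miR-206-3p. Of these 13, 9 were not detected on every array, miR-294-3p, miR-466j and miR-672-5p among them, and all of these but miR-466c-5p_v15.0 had passed the filter only through the myopia arm. Among the 288 detected on all 12 arrays, 4 of the 15 called held the run (26.7%), miR-669n, miR-669a_v15.0, miR-1187 and miR-574-5p, and 1 of the 273 not called (0.366%). The run was chosen with the calls known, so these shares are a description.

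Strand pairs were compared within each array, since an array's scale cancels in the difference between the log2 values of the 5p and 3p strand where neither lies at the floor. For pairs with values at the floor, such as miR-214, it does not cancel. The level of the difference depends on the probes and is not read, only how it differs between arms. Of 181 pairs on the array, 57 had both strands tested. The strands changed unequally in 5 of them (8.77%), with the 5p change larger in 3 (5.26%) and the 3p change larger in 2 (3.51%), and 8 had an unadjusted p under 0.05. The 5 include miR-214, which is counted but not read as a test result, since its 5p strand entered only through the myopia arm. Of the 38 pairs with both strands on all 12 arrays, 3 were called (7.89%), miR-338, miR-342 and miR-124. The median size of the unequal change was 0.08, and for 48 of the 57 the 95% interval lay within a 1.5-fold change. In 6 pairs 1 strand was called as a single miRNA, and in 0 pairs were both. For miR-574 both strands were higher in myopia, by 1.22 for 5p (called) and 1.81 for 3p (not called). Its unequal change was -0.59 (SE 0.64).

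miR-338 is encoded within Aatk, and its 3p strand is the better known one, with roles in oligodendrocytes and neurons. miR-338-3p ran from -0.97 to -0.70 (median -0.87) in myopia and from -0.94 to -0.85 (median -0.92) in control, a difference of 0.06 (SE 0.05). miR-338-5p ran from -4.20 to -3.45 (median -3.97) in myopia and from -5.68 to -4.52 (median -5.05) in control. The 5p minus 3p value lay between -3.50 and -2.59 in myopia and between -4.75 and -3.62 in control, without overlap, and differed by 1.08 (SE 0.18, limma adjusted p = 0.00208 over 57 pairs). The call was lost with normexp (0.10), the total gene signal (0.57) and the brightest probe alone (0.37).

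miR-214 is encoded within Dnm3os, a transcript of mesenchymal cells, together with miR-199a-2. miR-214-3p ran from -3.32 to -2.22 (median -2.59) in myopia and from -3.29 to -2.34 (median -2.85) in control, overlapping throughout. miR-214-5p was detected on 5 of 6 myopia arrays and on 0 control arrays, where it lay at or near the floor of -6.58. With the main processing it was at least 3.57-fold higher in myopia. The log2 difference of this strand was 0.59 with the total gene signal and 0.18 with normexp, so the bound holds for the main processing only. miR-214-5p passed the filter only through the arm where it was high, and its control values were set by the floor. The unequal change is thus given without a test: at least 1.71 with the main processing, from the bound of the 5p strand. The pair did not pass with normexp (0.13), the total gene signal (0.46), the brightest probe (0.20) or the authors' deposited value table (0.91), and with a floor 4 times higher its value was -0.026. The neighbouring miR-199a pair showed no unequal change (-0.04, 95% interval -0.16 to 0.08).

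miR-30c-5p is made from more than 1 precursor, and miR-30c-1-3p comes from the one within Nfyc. The 5p strand ran from 1.82 to 2.13 (median 1.98) in myopia and from 1.80 to 1.99 (median 1.93) in control, a difference of 0.07 (SE 0.06). The 3p strand was detected on 6 myopia and 5 control arrays and ran from -4.92 to -2.05 (median -3.54) in myopia, above every control array (median -6.35). The pair differed by -2.49 (SE 0.44, limma adjusted p = 0.00208), with the 3p change larger. With normexp it was -0.26 and with the higher floor -1.02, neither called, and the call was also lost in the authors' deposited value table. The 3p strand lay at the floor of -6.58 on control replicate 1, so the size of this difference depends on the floor. The pair of miR-30c-5p with miR-30c-2-3p, both detected on every array, was not called. Its unequal change was -0.015 (SE 0.055, limma adjusted p = 0.906), so the call concerns miR-30c-1-3p only.

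Both remaining called pairs changed by little. For miR-342 the 5p minus 3p value lay between -4.84 and -4.44 (median -4.68) in myopia and between -5.16 and -4.83 (median -4.96) in control, with an overlap of 0.01, and differed by 0.31 (SE 0.08, limma adjusted p = 0.0273). It lost its call when any of myopia replicates 3, 5 and 6 or control replicates 1, 2 and 4 was left out, and with normexp it was -0.021. For miR-124 neither strand was called (-0.02 for 5p, 0.14 for 3p). Its 5p minus 3p value lay between -7.93 and -7.78 (median -7.82) in myopia and between -7.78 and -7.60 (median -7.63) in control, without overlap, and differed by -0.17 (SE 0.05, adjusted p = 0.0427). That call was kept in 3 of the 12 fits that left out 1 array, those without myopia replicate 1, control replicate 1 or control replicate 2.

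For most bright pairs both strands moved together. The 5p and 3p strands of miR-183 both differed by 0.14, leaving -3.01e-04 between them (95% interval -0.11 to 0.11). Those of miR-140, known from cartilage and within Wwp2, differed by 0.21 and 0.18, and those of miR-30a by 0.10 and 0.12. The unequal change was 0.08 (-0.02 to 0.18) for miR-9, 0.03 (-0.09 to 0.15) for miR-129-5p with miR-129-2-3p, and -0.05 (-0.18 to 0.08) for miR-1839. None of these 7 pairs, miR-199a included, was called, and every interval lay within a 1.5-fold change.

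**Figure D5:**
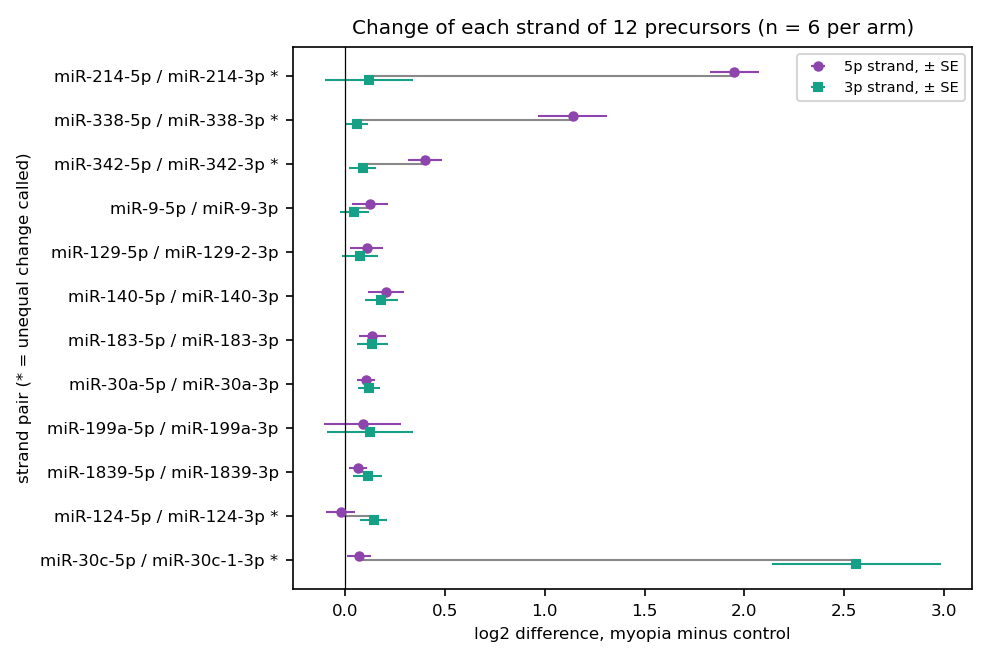
Log2 difference between arms (myopia minus control, n = 6 arrays per arm) of the 5p strand (purple circle) and the 3p strand (green square) of 12 pairs, each with its standard error, joined by a line. The 5 starred pairs had an adjusted p under the threshold, from 1.83 for miR-214 to -2.49 for miR-30c-5p with miR-30c-1-3p. The miR-214 star is not read as a test result. Its 5p strand entered only through the myopia arm, and its control values lie at the floor. The markers of the other 7 lie within 0.08 of each other.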

How the data were processed

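Spot intensity was read from the deposited scanner output of Agilent Feature Extraction (version 11, per the submitters' processing notes), which had subtracted background, per the file headers. A series value table of the authors gives log2 values by probe, and how it was scaled is not stated in the labels. The medians of its whole-eye columns ran from 3.18 to 3.69. Every column used was mapped to a sample, with 0 left unmapped. Outlier and control spots were left out. Spot means were summed over the probes of a miRNA, divided by the 75th percentile of the 288 miRNAs that all 12 arrays detected, floored at -6.58 (85 of 4092 tested values) and log2 transformed. Arms, and the difference between strands, were compared in limma (3.58.1, under R 4.3.3; two-sided, Benjamini-Hochberg, threshold 0.05) and no covariates. The fit was tested on simulated data. Strands were paired by RefSeq hairpin or by name. Positions are those of the files (mm9), and host genes are by RefSeq bounds. The number of arrays limits the precision. Alternatives were normexp (offset 50), other scaling, probe summaries, floors and filters, blocks, single slides, array weights, and leaving out arrays. Whether equal replicate numbers are eyes of the same mouse is not given in the labels. Arms were compared unpaired, though by the labels both come from the same mice.

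For a bound, each control array was set to its lowest detected signal, or to the value of the miRNA where that was higher. The members and lists were chosen with earlier results of these data known. The miRNAs named are the 10 brightest, every called one detected on all 12 arrays, the 5 decreases with the smallest p, the called and the 8 brightest strand pairs, and list members as examples. Those named for the ACACAC run were chosen after their values were seen. Python 3.11.15 read the files and matplotlib 3.10.9 drew the figures.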

Additional observations from a re-analysis of the deposited data

Results flagged for a closer look

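Of 88 groups of 6 values examined, 6 held an array far from the other 5, and chance alone would mark about 5% of groups. miR-204-5p was at 4.13 on control replicate 5, below the 4.26 to 4.31 of the other control arrays. Myopia replicate 5 was the highest for miR-338-5p, at -3.45 against -4.20 to -3.93, and for miR-652-3p, at -0.15 against -0.60 to -0.45. The 5p minus 3p value of miR-183 was 5.25 on control replicate 6, against 5.30 to 5.33. The median variation between spots was 17.8% on myopia replicate 3, against 7.58% to 10.4% on the other myopia arrays, and 8.38% on control replicate 3, against 7.15% to 7.59%. The corner control spots, outside the miRNA measurement, averaged 324 on myopia arrays, above the control mean of 161, with ranges of 226 to 487 and 137 to 230.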

How the results depend on the processing

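The count of changed miRNAs was 35, and moved by over 1.5 times with normexp (22), quantile normalisation (96), a floor 4 times higher (21), only miRNAs on all 12 arrays (15), slide 1 alone (20) and slide 3 alone (17). Leaving out 1 array gave 34 to 42. The median of well-detected miRNAs (0.08) turned to -0.13 when scaled on all miRNAs and to -0.12 with quantile normalisation, was 0.02 and 0.17 on slides 2 and 3 alone, 0.04 with normexp and 0.05 with the brightest probe, and ran from 0.06 to 0.10 with 1 array left out. The count of unequal strand pairs was 5 and was the least stable. It was 0 with normexp (limma; 1 with an unadjusted p under 0.05), 15 with quantile normalisation, 2 with the total gene signal, 1 with the value table, 3 with the higher floor, 3 among pairs on all arrays, 13 of 181 with no filter, and 3 without myopia replicates 3 and 6, an alternative added after seeing the data. On slides 1, 2 and 3 alone it was 2, 0 and 0 (limma; unadjusted 6, 8 and 4), and with 1 array left out 3 to 5. Leaving out myopia replicate 3, 5 or 6 or control replicate 4 gave 3. Among the named results that were called, miR-324-3p (-0.016) and miR-342-5p (-0.089) turned sign with quantile normalisation. So did the miR-214 pair (-0.026) with the higher floor, and the miR-342 pair with normexp (-0.021) and quantile normalisation (-0.10). Some that were not called also turned sign, such as miR-124-3p at -0.07 when scaled on all miRNAs. The cause was not tested. Same-numbered arrays correlated at -0.15 to 0.48, and each number was its own best match for 2 of 6, which does not settle whether equal numbers are the eyes of 1 mouse, and the fits were left unpaired. With the replicate block 45 miRNAs (44 higher, 1 lower, miR-133a-3p) and 4 pairs were called, without miR-124 (limma adjusted p = 0.127). With the slide as a block the counts were 44 and 7. Dim probes limit what can be read: where control signal lies near 0, the log2 difference depends on the floor.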
